A study of Mus musculus with 4 samples.

Results

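In FGF19-treated mouse liver, 259 of 3155 SHP peaks were called there only and centred near start sites of genes transcribed away from each other. The FGF19 and vehicle lists together held 4663 peaks. The members were selected on the peak calls themselves: a row of the FGF19 list on chromosomes 1 to 19 or X entered if it shared no base with any row of the vehicle list, and if its centre lay within 1 kb of at least 1 plus-strand and 1 minus-strand transcription start site (TSS) of protein-coding transcripts of 2 different genes (GENCODE M1, mouse build mm9). Of the 3148 FGF19 peaks on these chromosomes, 2461 shared no base with a vehicle peak (78.2%), and 2027 of these had a coding TSS within 1 kb. The members were 12.8% of those 2027 peaks, the other 1768 lay at promoters with coding starts of a single gene or of genes on the same strand, and 434 FGF19-only peaks had no coding TSS that near. By the 2 starts closest to each other, the label "divergent" held in its strict sense for 209 members. In these the minus-strand gene started to the left of the plus-strand gene with no overlap. In the other 50 members the closest starts lay in the reverse order, so that the 5′ ends of the paired genes overlapped. When any head-to-head pair of starts within 1 kb was accepted, 225 members qualified. Members are named below as plus-strand gene/minus-strand gene, with the gene symbols of the annotation.

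Binding of the small heterodimer partner (SHP, Nr0b2) was assayed by ChIP-seq in the liver of male wildtype C57BL/6 mice aged 8 to 12 weeks. After a 12 h fast, mice were injected through the tail vein with FGF19 at 1 mg/kg or with vehicle, and livers were taken 2 h later. Chromatin from 3 mice was pooled in each group, giving 1 SHP ChIP library and 1 input library per group. No replicate spread can therefore be given and no difference between the groups was tested. The list compared is a list of calls: a member had no vehicle peak over it, and the vehicle signal at that place was not analysed here. The ChIP libraries held 13444078 tags with FGF19 and 15473647 with vehicle after duplicate removal. Intervals in parentheses are 95% intervals (Wilson for percentages, order statistics for medians) and cover counting error only.

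SHP is an orphan nuclear receptor that has a ligand-binding domain but no DNA-binding domain, and it reaches chromatin through other transcription factors and corepressors. It is induced by bile acids through FXR and represses bile acid synthesis, and FGF19, the gut hormone whose mouse counterpart is FGF15, signals to the liver after a meal. Divergent, or bidirectional, promoters are short stretches from which a pair of genes is transcribed in opposite directions. They are mostly CpG islands without a TATA box, and many of their genes serve DNA repair, mitochondria or RNA processing.

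The stretch between the start sites is shown for 6 members whose summit lay inside it, which held an exact match to a promoter-factor motif, and in which no annotated exon base intervened. All are written 5′ to 3′ on the plus strand of mm9, so that the minus-strand gene starts just before the first base and the plus-strand gene just after the last. Capitals mark the motif matches.
Ubn1/Glyr1, chr16:5050004-5050160: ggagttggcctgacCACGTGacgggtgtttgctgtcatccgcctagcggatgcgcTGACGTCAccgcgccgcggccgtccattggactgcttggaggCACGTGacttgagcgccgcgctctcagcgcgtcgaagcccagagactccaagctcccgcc
Kctd2/Atp5h, chr11:115281277-115281439: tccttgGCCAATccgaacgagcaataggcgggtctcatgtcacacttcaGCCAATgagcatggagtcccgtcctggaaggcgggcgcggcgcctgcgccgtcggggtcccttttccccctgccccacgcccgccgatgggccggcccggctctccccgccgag
Orc6/Vps35, chr8:87823413-87823530: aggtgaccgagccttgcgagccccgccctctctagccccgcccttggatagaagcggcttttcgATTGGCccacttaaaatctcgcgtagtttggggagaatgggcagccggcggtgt
Atg4b/Thap4, chr1:95651416-95651481: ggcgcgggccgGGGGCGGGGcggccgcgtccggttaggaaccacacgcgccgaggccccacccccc
D430042O09Rik/Gtf3c1, chr7:132851295-132851389: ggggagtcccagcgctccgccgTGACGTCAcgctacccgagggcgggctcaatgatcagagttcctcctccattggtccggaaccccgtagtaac
Rpl18/Sphk2, chr7:52970578-52970826: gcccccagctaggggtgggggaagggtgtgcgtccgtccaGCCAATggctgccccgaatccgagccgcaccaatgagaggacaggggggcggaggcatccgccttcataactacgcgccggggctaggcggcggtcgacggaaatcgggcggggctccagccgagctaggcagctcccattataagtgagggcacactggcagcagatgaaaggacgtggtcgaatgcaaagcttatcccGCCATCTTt

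The 6 stretches ran from 66 to 249 bases and were 61.0 to 84.8% GC. At D430042O09Rik/Gtf3c1 the cAMP response element (CRE, TGACGTCA) began 1 bp from the summit, and at Atg4b/Thap4 the SP1 match began 3 bp from it. Gtf3c1 encodes a subunit of the RNA polymerase III factor TFIIIC, and Atg4b a protease that processes the ATG8 proteins of autophagosomes. At Kctd2/Atp5h the NF-Y boxes (GCCAAT) began 21 and 22 bp to either side of the summit, and at Orc6/Vps35 the NF-Y box, on the minus strand, began 11 bp from it. Atp5h encodes a subunit of the mitochondrial ATP synthase, Orc6 a subunit of the origin recognition complex and Vps35 the core subunit of the retromer. At Ubn1/Glyr1 the summit fell on base 156 of 157, with the CRE 100 bp and the nearer E-box (CACGTG) 58 bp upstream of it. At Rpl18/Sphk2, a ribosomal protein gene paired with a sphingosine kinase gene, the NF-Y box began 30 bp from the summit, whereas the YY1 match stood 230 bp away, next to the start of Rpl18.

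The paired start sites of the members lay close together, as did those of annotated pairs at large. Over the 1438 annotated pairs with starts at most 2 kb apart, the median distance was 107 bp (96 to 116). That interval overlaps that of the members, and the rule itself allows at most 2 kb. The median distance from the minus-strand to the plus-strand TSS was 96 bp (78 to 117), with quartiles at 21 and 211.5 bp and a range from -780 to 891 bp, where a negative value means overlap. The shortest head-to-head distances were 1 bp at Zfp511/Tubgcp2 and 3 bp at 2610027L16Rik/Dhrs1, at Prmt7/Slc7a6os and at AW554918/5730494M16Rik. The longest were 873 bp at Izumo4/Mob3a and 891 bp at Neurl4/2810408A11Rik. Among overlapping pairs, Cutc/Cox15, Arf4/4930570N19Rik and Tcp1/Mrpl18 overlapped by the least, at -4, -8 and -16 bp, and 2310047M10Rik/9330160F10Rik, Gadd45gip1/Dand5 and Stk4/Tomm34 by the most, at -708, -719 and -780 bp.

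Peak summits lay near the start sites, and how many lay between them depended on which starts of the paired genes were taken. With the starts closest to each other, the summit was between them in 79 of 259 members, or 30.5% (25.2 to 36.4). With the most downstream start of each gene within 1 kb, a wider space by construction, it was between them in 143, or 55.2% (49.1 to 61.1). Of the 209 head-to-head members, by the closest starts, 64 had their summit between the starts, 69 on the side of the plus-strand gene and 76 on the side of the minus-strand gene, so neither strand was preferred by more than the counting error. The median distance from the summit to the nearest start was 62 bp (53 to 78), and 62.9% of the summits (56.9 to 68.6) lay within 100 bp of a start. An annotated exon held 69.1% of the summits (63.2 to 74.4), an intron 12.7%, and neither 18.1% (13.9 to 23.3). Peaks common to both lists at divergent promoters differed in this with the closest starts: 40 of their 85 summits in the FGF19 list lay between the starts, 47.1% (36.8 to 57.6), an interval that does not reach that of the members. With the most downstream starts this was 69.4% (59.0 to 78.2), and the intervals overlapped. Their starts were 128 bp apart at the median (95 to 179), an interval that overlaps that of the members, and their peaks were 414 bp long at the median (371 to 471) against 367 bp (345 to 382), again with overlapping intervals. The part of these lengths in the difference was not tested. In the 86 vehicle-only peaks at divergent promoters 26.7% of the summits (18.5 to 36.9) lay between the starts, with an interval that overlaps that of the members.

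**Figure D1:**
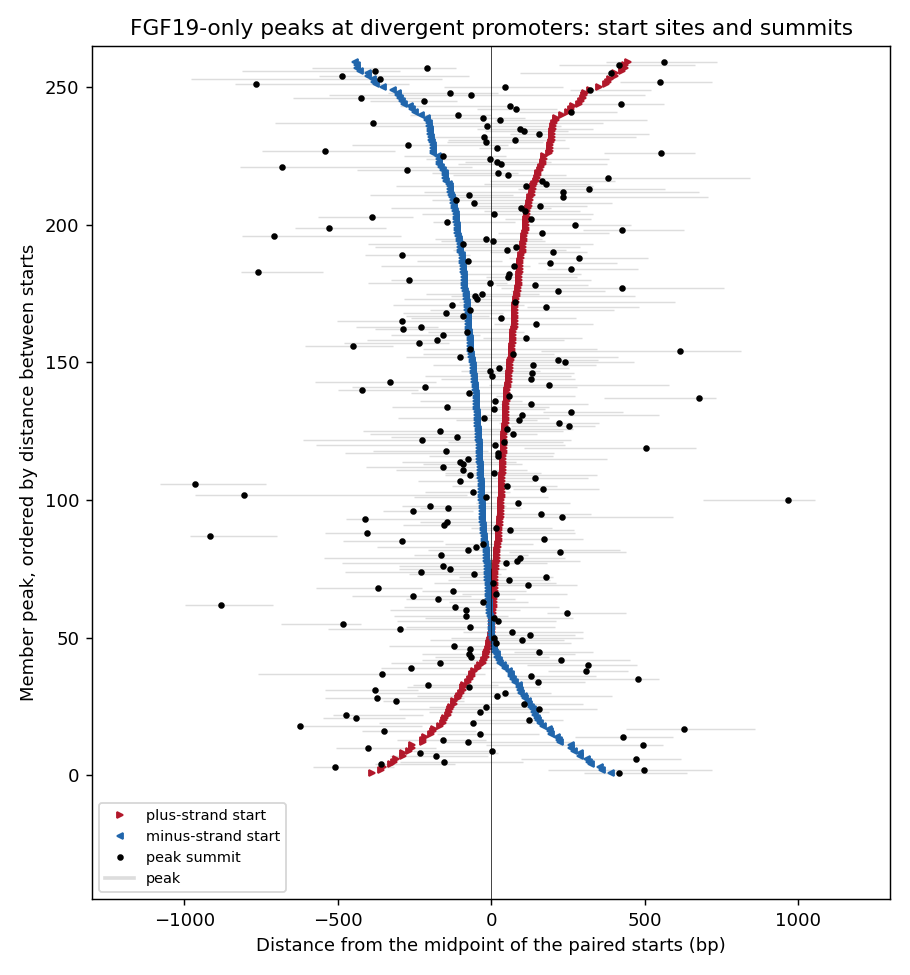
Each of the 259 members is a row, ordered by the distance between the paired starts, with position in bp from their midpoint on the x axis. Triangles mark the plus-strand (red) and minus-strand (blue) starts, black points the summits and grey lines the peaks. Summits scatter on both sides of the starts along the whole order, with 79 of them between the closest starts, and the 50 overlapping pairs form the crossed part at the bottom.

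The height of a member was read in 2 quantities, the tag pileup at the summit and its fold enrichment over the local input background. The median fold enrichment was 3.90 (3.83 to 4.03, range 2.33 to 7.45) and the median pileup 24 tags (23 to 25, range 11 to 41). Single-gene promoters with an FGF19-only peak had 3.94 (3.90 to 4.02) and 23 tags (23 to 24), with intervals that overlap those of the members in both quantities. A -log10 q-value of at least 3 was reached by 84.6% of the members (79.7 to 88.4) and by 85.0% of the single-gene peaks (83.2 to 86.5). At common divergent peaks the fold enrichment was close to that of the members, 3.97 (3.77 to 4.52), and the pileup higher, 29 tags (27 to 32). Their local background, worked out from pileup and fold enrichment, was also higher, 6.19 tags (5.65 to 6.97) against 5.42 (5.25 to 5.47). Vehicle-only divergent peaks stood at 3.79 (3.53 to 4.00) and 25 tags (23 to 26), on a vehicle library of another depth. These heights come from the lists that chose the members and are given as a description.

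**Figure D2:**
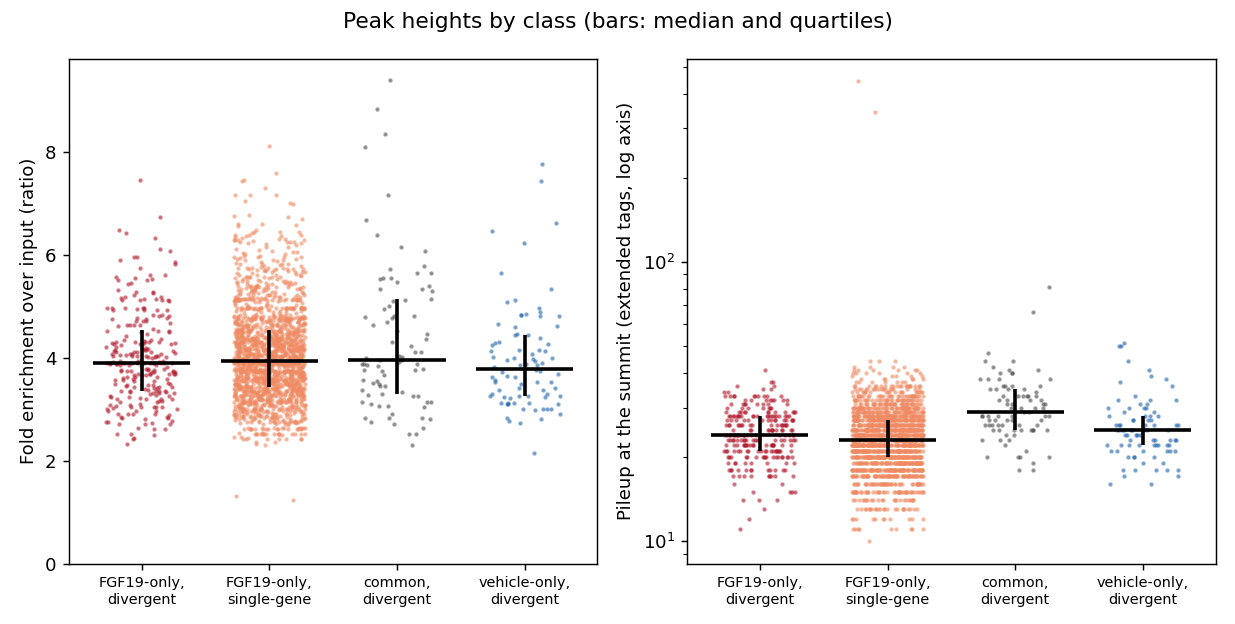
Fold enrichment over input (left, linear axis) and pileup at the summit in extended tags (right, log axis) for each peak of 4 classes, with medians as horizontal and quartiles as vertical bars. The 259 members spread from 2.33 to 7.45 in fold enrichment, around the same level as the 1768 single-gene peaks, and reach no higher than 41 tags, while common divergent peaks have a median of 29.

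The largest fold enrichment, 7.45 with a pileup of 26 tags, was at Gm5447/Exoc2 (chr13:31065674-31066100), where Exoc2 encodes a subunit of the exocyst and the gene model Gm5447 has no match in the RefSeq gene table. Fam179b/Klhl28 (chr12:66066502-66066870) followed with 6.74 and 29 tags, its summit between the starts. Acaa1a/Myd88 (chr9:119250072-119250397) had 6.49 and 33 tags. Acaa1a encodes the peroxisomal thiolase of fatty acid oxidation, and Myd88 the adaptor of Toll-like receptors, and the summit lay 268 bp into Myd88. Isg20l2/Rrnad1 had 6.43, Hexdc/1110031I02Rik 6.33 and Bap1/Phf7 6.11, the last beside the gene of a nuclear deubiquitinase. The remaining 4 of the top 10 were Lrrc50/Hsdl1 at 6.07, 2210408I21Rik/Ankrd32 at 5.96, Srp54b/2700097O09Rik at 5.95 and 4732415M23Rik/Chmp1a at 5.91, Chmp1a being a component of the ESCRT-III membrane scission machinery. Srp54b has near-identical copies in the same region, and reads there are uncertain in their assignment.

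The largest pileups were 41 tags at Ubtd1/Mms19, 37 at Pbld2/Hnrnph3 and at Myo9b/Haus8, and 36 at Hexdc/1110031I02Rik and at Ccdc101/2510046G10Rik, with fold enrichments of 3.79, 3.69, 4.77, 6.33 and 3.89. Of these 5, only the Hexdc peak was also among the 10 largest fold enrichments. Of the 42 members with a pileup of at least 30 tags, 18 had a fold enrichment above the upper quartile of the members (4.55). The local background behind the 5 largest pileups was 8.51 tags at the median (range 4.84 to 10.1). Behind the 10 largest fold enrichments it was 3.66 tags (2.62 to 4.44), a difference that follows from how the ratio is made. Mms19 encodes a factor that loads iron-sulphur clusters onto DNA repair enzymes, Hnrnph3 a splicing protein and Haus8 a subunit of the augmin complex of the spindle.

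Peaks stood close to the limits of the rule on both sides, and those left out were not all lower than those taken in. Just inside 1 kb, with the farther start at 999.5, 981.5 and 956 bp from the peak centre, were Neurl4/2810408A11Rik at a fold enrichment of 4.17, Mpst/Tst at 3.69 and Enoph1/Hnrpdl at 4.36. Just outside, at 1022.5, 1036 and 1112 bp, were Polr1d/Lnx2 at 6.36, Mll5/5031425E22Rik at 4.41 and Pkp4/Ccdc148 at 3.19. On the side of the vehicle list, 8 members, 3.09% (1.57 to 5.98), had a vehicle peak within 1 kb. The nearest lay 11 bp from Ddx54/1110008J03Rik (2.53, 25 tags), 69 bp from Gdap2/Wdr3 (3.72, 20 tags) and 124 bp from Adk/Ap3m1 (3.87, 31 tags). The vehicle peak beside Adk/Ap3m1, the adenosine kinase gene, had a pileup of 49 tags and a fold enrichment of 4.00, and it overlapped another FGF19 peak. On the other side of that limit, the common peaks sharing the fewest bases with a vehicle peak were AI837181/Drap1 with 55 bases and Ss18l1/Psma7 with 72.

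Seen from the annotation, 1438 pairs of protein-coding genes had oppositely directed starts at most 2 kb apart, with the minus-strand start either before or behind the plus-strand one. A common peak was centred within 1 kb of starts of both genes in 86 of them, and a vehicle-only peak in 88. A member was so placed in 255, 17.7% (15.8 to 19.8). The share was 18.0% (15.9 to 20.4) of 1137 head-to-head pairs and 16.6% (12.8 to 21.2) of 301 overlapping ones. Over head-to-head distances of 0 to 50, 51 to 100, 101 to 200, 201 to 300 and 301 to 500 bp it was 21.2, 23.0, 17.8, 20.5 and 23.6%, and these intervals overlap one another. From 501 to 1000 bp it was 15.7% (9.89 to 24.0) of 102 pairs. From 1001 to 2000 bp no member was found at 130 pairs, which allows a share of up to 2.31% when 3 counts are taken as the limit, and where the rule leaves a narrowing space for a peak centre within 1 kb of both starts.

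Genes in such pairs held a FGF19-only peak within 1 kb of a start in 550 of 2836 cases, 19.4% (18.0 to 20.9), against 8.63% (8.24 to 9.03) of the other 19512 coding genes and 9.99% of all 22348. A single peak can count for both partners of a pair here, while the intervals treat each gene as separate. The same order was seen for common peaks, at 6.52% (5.67 to 7.49) and 1.79% (1.61 to 1.98), and for vehicle-only peaks, at 6.70% (5.84 to 7.68) and 2.57% (2.36 to 2.80). Paired genes more often have CpG-rich starts, so the shares were also taken over genes whose 201 bp start window had a GC content of at least 50% and an observed-to-expected CpG ratio of at least 0.6, a cut chosen after seeing the data. Among these, FGF19-only peaks stood at 22.8% (21.0 to 24.6) of the paired and 16.7% (15.9 to 17.5) of the other genes, a smaller ratio than over all genes. Among the genes with other start windows they stood at 9.53% (7.60 to 11.9) and 1.99% (1.74 to 2.27). Conversely, among FGF19 peaks at divergent promoters 75.3% (70.5 to 79.6) were FGF19-only, below the 82.7% (81.0 to 84.2) at single-gene promoters, which describes the calls that chose the members.

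**Figure D3:**
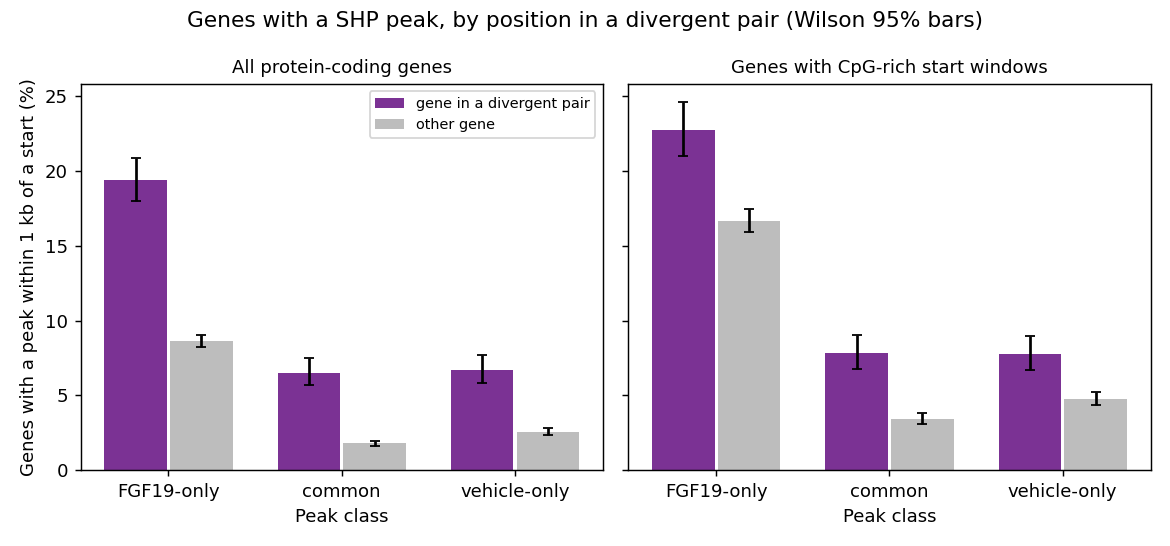
Percent of protein-coding genes with a SHP peak within 1 kb of a start, for genes in a divergent pair (purple) and other genes (grey), by peak class, over all genes (left) and genes with CpG-rich start windows (right). Bars start at 0 and error bars are Wilson 95% intervals. Paired genes are above other genes in all 3 classes, at 19.4 and 8.63% for FGF19-only peaks over all genes and at 22.8 and 16.7% over CpG-rich starts.

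The 259 members belonged to 251 pairs of symbols, and 8 pairs held 2 members each, a set named after its values were seen. At Izumo4/Mob3a both summits lay between starts 873 bp apart, with fold enrichments of 3.99 and 3.05. At Ppp2r4/Crat, where Crat encodes the carnitine acetyltransferase, the summits lay 416 bp into Crat and 158 bp into Ppp2r4, at 4.47 and 3.86. At Apoh/Prkca, which joins the gene of the plasma protein beta-2-glycoprotein I to that of protein kinase C alpha, both summits lay in introns, at 5.16 with 15 tags and 4.34 with 20 tags. Others were 2010109A12Rik/Ccni, 2810002N01Rik/Bag5, Phax/Aldh7a1 and Tacc3/Tmem129. Within 1 kb of 4 members 3 gene IDs had starts, but only Srp54b/2700097O09Rik had 3 symbols, the other being Srp54a.

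The members were rich in GC and CpG. Within 100 bp of the summit the median GC content was 68.7% (67.2 to 69.7) and the median observed-to-expected CpG ratio 0.909 (0.887 to 0.940), and 94.6% of the windows (91.1 to 96.8) met the CpG-rich cut. Single-gene FGF19-only peaks were slightly higher in GC, 70.6% (70.1 to 71.1), and alike in CpG ratio, 0.900 (0.891 to 0.910). Vehicle-only divergent peaks were lower in GC, 63.4% (61.2 to 65.2). At the midpoints of pairs with a member the GC content was 66.2% (65.2 to 68.2), above the 60.2% (59.2 to 61.2) at the 1017 pairs without any peak, and the CpG ratio was 0.934 (0.895 to 0.965) against 0.766 (0.740 to 0.786). The pairs that held a member were therefore the more CpG-rich of the annotated pairs. How GC content bore on the number of tags was not tested.

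Of 11 promoter-factor motifs searched as exact matches on both strands, at least 1 was found near the summit of 118 members, 45.6% (39.6 to 51.6). Such a match was also in 742 of 1768 single-gene FGF19-only peaks (39.7 to 44.3%). At midpoints it was in 705 of the 1438 annotated pairs (46.4 to 51.6%). Both intervals overlap that of the members, so this share does not set the members apart. Among the members, SP1 (CCCCGCCCC) was in 16.2% (12.2 to 21.2), NF-Y (GCCAAT) in 12.4% (8.89 to 16.9) and YY1 (AANATGGC) in 9.65% (6.62 to 13.9). ETS (CCGGAAGT) was in 7.34% (4.75 to 11.2) of them, the E-box (CACGTG) in 6.95% and NRF1 (GCGCATGCG) in 3.47% (1.84 to 6.47). The same letters were in 13.6, 15.2, 6.75, 8.69, 7.16 and 3.27% of the midpoint windows of all annotated pairs, and in 12.1, 12.0, 5.75, 4.27, 5.56 and 1.74% of the windows at all coding gene starts. At the CpG-rich coding gene starts, by the cut given above, they were in 21.3, 14.3, 8.02, 7.80, 8.21 and 3.29%. The interval of the members held each of these CpG-rich values except that of SP1, which lay just above it. For each of these 6 motifs the interval of the members also held the value of all annotated pairs, although the former windows lie at summits and the latter at midpoints. Between midpoint windows, SP1 was in 20.4% (15.9 to 25.8) of the pairs with a member and in 10.9% (9.14 to 13.0) of the pairs without any peak, and CRE in 5.88% (3.60 to 9.48) and 2.26% (1.51 to 3.37), with intervals that do not overlap. At these midpoints the E-box was in 10.6% (7.38 to 15.0) and 5.90% (4.61 to 7.52), ETS in 11.8% (8.37 to 16.3) and 7.87% (6.37 to 9.68), and NF-Y in 14.9 and 15.1%, with overlapping intervals. The pairs with a member also had the higher GC content given above, and its part in these shares was not tested. The 5 others, CRE (TGACGTCA), ZBTB33 (CTCGCGAGA), ZNF143 (ACTACAATT), E2F (TTTNGCGC) and the hexamer TATAAA, were each in at most 2.32% of the members. The hexamer was in 0.772% (0.212 to 2.77), against 3.48% (2.65 to 4.55) of all pairs and 8.21% of all gene starts. It was in 2.82% (2.53 to 3.15) of the CpG-rich gene starts and 1.70% (1.19 to 2.41) of the single-gene FGF19-only peaks. Both of these intervals overlap that of the members.

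Among SHP peaks, the ETS match, 1 of 16 motifs compared, was more frequent at the members than at single-gene FGF19-only peaks, where it was in 3.39% (2.65 to 4.34). This separation was narrow. At a -log10 q-value of at least 3 the members stood at 6.39% (3.85 to 10.4), and with a 2 kb window at 6.48% (4.19 to 9.91), intervals that reach the single-gene one. With a 500 bp window, at 7.31% (4.55 to 11.5), they did not. The single-gene share was not retaken at these settings. The common divergent peaks, at 9.41% (4.85 to 17.5), and the vehicle-only divergent peaks, at 8.14% (4.00 to 15.9), had intervals that overlap that of the members. The summits of the single-gene peaks also lay farther from a start, 109 bp (101 to 115) at the median, and the part of this distance was not tested. The rule asks of each member starts of 2 different genes within 1 kb, which favours a shorter distance to the nearest start by construction. The YY1 match was in 21.2% (13.8 to 31.0) of the common divergent peaks, above the members at 9.65%, with intervals that meet at their ends. The liver and nuclear receptor motifs were rare. At least 1 of them was in 6.18% (3.84 to 9.80) of the members and 6.73% (5.65 to 7.99) of the single-gene FGF19-only peaks. Of all annotated pairs, 9.81% (8.37 to 11.5) held 1 or more, again with an interval that overlaps that of the members. The receptor-binding hexamer AGGTCA was in 5.02% (2.96 to 8.40) of the members, against 7.93% (6.64 to 9.44) of all pairs, an overlapping interval, and 8.87% of all gene starts. At CpG-rich gene starts it was in 5.10% (4.70 to 5.53). At midpoints it was in 3.53% (1.87 to 6.57) of the pairs with a member and 9.54% (7.88 to 11.5) of the pairs without any peak. These 2 intervals do not overlap, and the part of GC content in this was not tested. FOXA (TGTTTAC) was in 3 members, 1.16%, against 1.53% of all pairs and 0.989% of CpG-rich gene starts. No member held HNF4 (CAAAGTCCA), HNF1 (GTTAATNAT) or CEBP (TTGCGCAA), where 0 of 259 allows up to 1.16% when 3 counts are taken as the limit. All annotated pairs held them in 0.348, 0.139 and 0.139%, below that limit, so these counts do not set the members apart. A match is a run of letters and not a bound site.

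**Figure D4:**
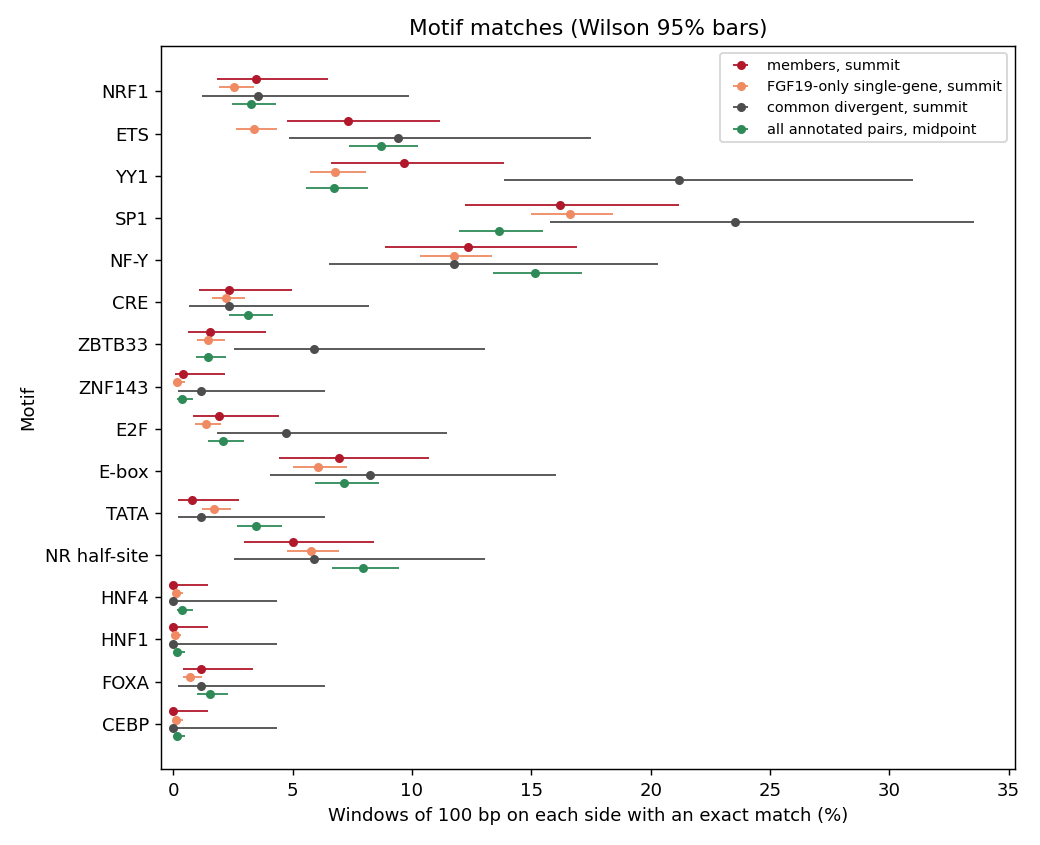
Percent of 201 bp windows with an exact match to each of 16 motifs, with Wilson 95% intervals, at summits of members (red), FGF19-only single-gene peaks (orange) and common divergent peaks (grey), and at midpoints of all annotated pairs (green). Members and all annotated pairs have overlapping intervals for NRF1, ETS, YY1, SP1, NF-Y and the E-box, while ETS is at 7.34% in members and 3.39% in single-gene peaks.

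There were 6 members with 3 or more different promoter-factor motifs around the summit. Arl5b/Nsun6 held ETS, SP1, CRE and the E-box, with its summit between starts 398 bp apart. Nup188/Dolk, a nucleoporin gene beside the dolichol kinase gene, held YY1, SP1 and the E-box. AI314976/Nfya, the promoter of a subunit of NF-Y itself, held YY1, SP1 and NF-Y and had a fold enrichment of 3.21 with 32 tags. The other 3 were Ubn1/Glyr1, shown above, Spsb3/Nubp2 with SP1, NF-Y and ZBTB33, and Dapk3/4930442H23Rik, the member with the lowest fold enrichment (2.33).

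By gene function, 503 gene symbols stood within 1 kb of a member, 2.26% of 22208 coding symbols and 17.8% (16.5 to 19.3) of the 2821 in annotated pairs. Over all coding symbols 12.7% were in a pair, but 39.2% or more were in the lists of mitochondrial ribosomal proteins, DNA replication and repair, histones, COP9 and exosome complexes and the textbook pairs, so each list is read against its own paired genes. In 19 of 20 lists the interval of that share held the value of 17.8% over all paired genes. Counting only the gene nearest the summit leaves at most 1 gene per peak, and it lowered several counts by more than 1.5 times: mitochondrial ribosomal proteins from 8 to 2, cell cycle and centrosome from 8 to 3, DNA replication and repair from 12 to 7, autophagy and lysosome from 7 to 3, RNA polymerase and general factors from 5 to 1, chaperones from 5 to 2, ubiquitin enzymes from 4 to 2, the textbook pairs from 4 to 2, aminoacyl-tRNA synthetases from 2 to 0 and cytosolic ribosomal proteins from 1 to 0. With a -log10 q-value of at least 3, mitochondrial ribosomal proteins fell to 5, chaperones to 3 and aminoacyl-tRNA synthetases to 1.

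DNA replication and repair genes, the list with the most paired genes, were also the most numerous, with 12 of 60 at a member. Their share was 20.0% (11.8 to 31.8), near the 17.8% of all paired genes. Among them were 4933430I17Rik/Pole3 at a fold enrichment of 5.10, Xrcc6/Pppde2 at 4.83 and Orc6/Vps35 at 4.25, where Pole3 is an accessory subunit of DNA polymerase epsilon and Xrcc6 encodes Ku70 of DNA end joining. Cell cycle and centrosome genes had 8 of 32, 25.0% (13.3 to 42.1), among them Zfp511/Tubgcp2 at 4.83, Myo9b/Haus8 at 4.77, Anapc11/Thoc4 at 4.57 and Anapc13/Cep63 at 4.03.

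Mitochondrial genes were represented in each of their lists. Mitochondrial ribosomal proteins had 8 of 31, 25.8% (13.7 to 43.2), with Hira/Mrpl40 at 4.78, Mrpl10/Lrrc46 at 4.76, Mrps18c/Helq at 4.50 and Mrps34/Eme2 at 3.72. At Mrps11/Mrpl46 both partners were of this list. Oxidative phosphorylation had 6 of 34, 17.6% (8.35 to 33.5): Rnf113a1/Ndufa1 on chromosome X at 5.57 with 15 tags, Kctd2/Atp5h at 5.13, Ccdc127/Sdha at 4.03, Tssk6/Ndufa13 at 3.90 and, lower, the genes Atp5j and Cox15. Sdha encodes the catalytic subunit of succinate dehydrogenase. Import and carrier genes had 3 of 15: B930094E09Rik/Slc25a46 at 3.59, Thbs3/Mtx1 at 3.34 and Stk4/Tomm34 at 3.09. Cytosolic ribosomal proteins had 1 of 15, Rpl18 at 3.83.

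RNA processing and transcription genes followed. Splicing had 9 of 32, 28.1% (15.6 to 45.4), led by Lsm1/Bag4 at 5.27, Rmi1/Hnrnpk at 5.12 and Enoph1/Hnrpdl at 4.36. Lsm1 acts in mRNA decay rather than in splicing, and Hnrnpk and Hnrpdl are RNA-binding proteins. The RNA polymerase and general factor list had 5 of 27, with Gtf3c1 at 5.83, the Rnf115/Polr3c pair at 4.16, Yipf3/Polr1c at 4.15 and Anks1/Taf11 at 4.02. Zinc finger proteins had 7 of 29, 24.1% (12.2 to 42.1), with Zfp664/Ccdc92 at 5.86 and the all-zinc-finger pair Zfp646/Zfp668 at 4.28. The aminoacyl-tRNA synthetases Kars (4.11) and Ears2 (2.84) were 2 of 12, the translation factor Abce1 (3.45) 1 of 12, and Exosc5 (3.16), an exosome subunit, 1 of 11.

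Protein quality control was covered by 4 lists. Autophagy and lysosome genes had 7 of 24, 29.2% (14.9 to 49.2), with Vps16/Fam113a at 5.31, Rb1cc1/4732440D04Rik at 4.29, Vps35 at 4.25 and Atg4b at 4.03. Rb1cc1 encodes FIP200 of the complex that starts autophagosome formation. Chaperones had 5 of 33, with Bag4 at 5.27, Hspb11/Lrrc42 at 4.63, Dnajc30/Wbscr22 at 4.07 and Bag5 at 3.92. Ubiquitin enzymes had 4 of 37, 10.8% (4.29 to 24.7): Bap1, Rnf115, Fbxw5 (3.37) and Fbxo24 (2.91). Proteasome genes had 0 of 11, which allows up to 27.3% by the limit of 3 counts.

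Histone genes had 0 of 37 paired genes at a member, which allows up to 8.11% by that limit, and this was the list whose interval (0 to 9.41) lay below the 17.8% of all paired genes. Their clustered copies are close to identical in sequence, and how many of their reads were placed was not analysed here. Of the sterol genes, 1 of 7 in pairs was at a member: Arid4b/Ggps1 (chr13:14155405-14155915) at 4.11 with 33 tags, where Ggps1 makes the geranylgeranyl diphosphate used to prenylate proteins. Its summit lay 80 bp into Ggps1. Of the bile acid genes only Cyp39a1 is in an annotated pair, and it had no member. Of 30 genes of pairs that textbooks give as bidirectional, 4 were at a member, 13.3% (5.31 to 29.7), an interval that holds the 17.8% of all paired genes. Among them were Paics and Ppat, which encode enzymes of purine synthesis and whose peak stood at 4.96 with 33 tags. A vehicle-only peak stood at 7 of the 30 genes, which were Surf1, Surf2, Hspd1, Hspe1, Mcm4, Prkdc and Acadvl, and a common peak at Cox4i1 and Cox4nb. The pairs Col4a1/Col4a2, Atm/Npat, Abcg5/Abcg8 and Hars/Hars2 had none. Nor had the remaining genes of the list, Brca1, Nbr1, Gart, Son, Tap1, Psmb9, Sars2, Mrps12 and Dlg4.

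**Figure D5:**
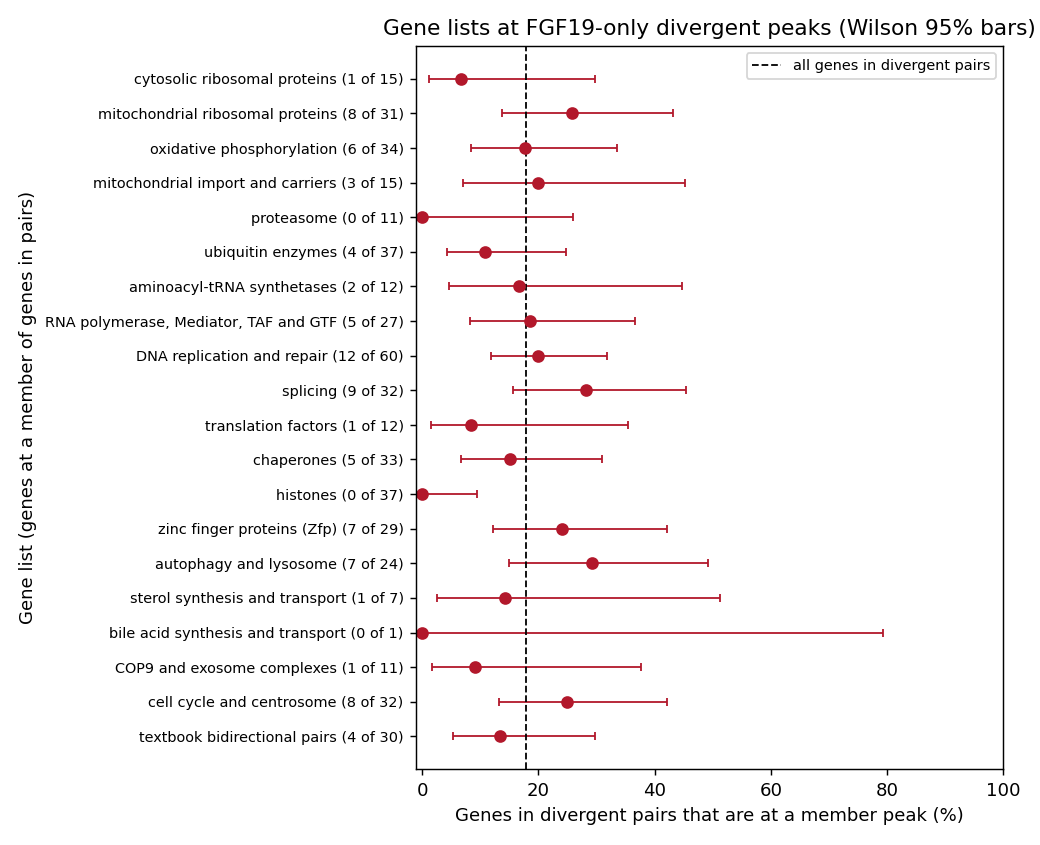
Percent of genes in annotated divergent pairs that lie within 1 kb of a member, for 20 gene lists, with Wilson 95% intervals and counts in the labels; the dashed line is the 17.8% over all paired genes. The interval crosses the line in every list but histones, which have 0 of 37. Intervals treat each gene as separate, although 1 peak can count for both partners of a pair.

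The pairing rests on the annotation of both partners. In RefSeq, 228 members had partners that are both protein-coding, 88.0% (83.5 to 91.4). In 10 a partner is now classed as noncoding, as Apol7d beside the fibronectin gene Fn1, and in 21 a partner was not matched by symbol or synonym. The 31 members with such a partner had a median fold enrichment of 3.91 (3.68 to 4.11), close to the 3.90 (3.78 to 4.03) of the 228. With both partners coding, the share of summits between the starts and the 5 leading motif shares stayed within the intervals given above.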

How the data were processed

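SHP ChIP-seq and input libraries of vehicle- and FGF19-treated mouse liver were processed by the authors, who aligned reads to mm9 with Bowtie 1.0.0 and, for each treatment, ran MACS2 2.0.10.20130501 on the ChIP library with the matching input (q-value cutoff 0.05, at most 1 tag per position and strand, CASAVA 1.8.2 named for the reads). The deposited pileup is the signal of extended tags at the summit, the deposited fold enrichment is a ratio over local input background, and the deposited significances are the -log10 p-value and, after correction, the -log10 q-value of MACS2. With 1 pooled library per group no p-value is given.

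The members and gene lists were chosen with earlier results of these data known. Peaks were set against GENCODE M1 starts and the mm9 sequence. Background was taken as (pileup + 1) / fold enrichment - 1. Named members were the 10 largest fold enrichments, the 5 largest pileups, up to 4 per gene list (all for sterol, bile acid and textbook pairs), the extremes and limits of distance, and members with 3 or more promoter-factor motifs. Some members that this rule names are not reported here. The functions returned every planted answer in 4 of 4 checks on simulated data. Gene names were checked in RefSeq (GRCm38.p6) by symbol, without its coordinates. Python 3.11.15, pandas 2.3.3, pyfaidx 0.9.0.4 and samtools 1.23.1 were used. Expression and reads were not analysed here.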

Additional observations from a re-analysis of the deposited data

How the results depend on the processing

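Other settings left most values where they were: 90 of 110 alternative values of the main results stayed within the interval of the main value, or within 1.5 times of it for counts. The number of members rose to 437, and their share of FGF19-only promoter peaks to 20.9%, when starts of all transcript biotypes were used. That share was 11.3% with both starts within 500 bp of the centre. It was 11.1%, from 225 members, when only head-to-head pairs of starts counted, whether or not they were the closest. The median distance between starts then became 136 bp. Summits between the starts were 36.4% with gene starts only and 55.2% between the outermost starts, a wider space by construction. Annotated pairs with a member were 19.9% of pairs at most 1 kb apart, and 15.1% when a -log10 q of at least 3 was asked. Motif shares followed the length searched: within 50 bp of the summit NRF1, ETS, YY1, SP1 and NF-Y stood at 1.54, 4.63, 5.02, 8.11 and 6.56%, and over whole peaks ETS, YY1, SP1 and NF-Y stood at 13.5, 18.1, 26.6 and 19.3%. Genes of the lists at a member numbered 83, and 41 when only the gene nearest the summit counted. Paired genes with an FGF19-only peak were 22.8% among CpG-rich starts. This check and that with RefSeq partners were chosen after seeing the data. No paired analysis was possible because each group is 1 pooled library.

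A missing vehicle peak is a missing call and not a measured absence. Summits rest on 11 to 41 tags, which limits the ranking of their heights, and motif and list shares rest on few peaks. Variation between mice cannot be seen in pooled material.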
